A study of Mus musculus with 16 samples.

Results

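Differentiating murine embryonic stem cells were exposed for 24 h to the MeOH eluate of hawthorn extract, and their transcripts were compared with those of cells that received the vehicle DMSO. The comparison used the 3 arrays labelled MeOH at 24 h and the 2 arrays labelled control at 24 h, 5 of the 16 arrays of the study. All cells carried the same reporter, GFP under the promoter of Myh6 (the alpha myosin heavy chain of heart muscle), in the mESC line CGR8, so that every group represents this line only, and treatment began on day 4 of cardiac differentiation in multiwell plates. The MeOH eluate, given at 0.1 mg/ml, is the methanol fraction from column chromatography of WS1442, an extract of hawthorn leaves and flowers, and is rich in oligomeric procyanidins (short chains of flavan-3-ol units). DMSO groups held 2 arrays and treated groups 3 at each of 6 h and 24 h, and WS1442 itself was given at 0.25 mg/ml. P-values and SEs came from a single fit of all group means over the 16 arrays, in which all groups share the spread of a gene. They thus do not rest on the spread of the DMSO and MeOH eluate arrays at 24 h alone. The labels name replicates but not separate differentiations, so p-values measure the spread between replicate arrays, which may be technical.

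At this stage of differentiation, mesoderm that has left a state similar to the primitive streak divides into precursors of heart, blood vessels, blood and other tissues. Families of transcription factors (GATA, T-box, forkhead) mark these precursors, while retinoic acid, BMP, FGF, nodal and Wnt signals steer them. Stress programmes run beside them: p53 restrains the cell cycle, and the factor ATF4 keeps up genes for amino acid uptake, amino acid synthesis and tRNA charging through promoter sites that it shares with C/EBP proteins. In bulk samples of a mixed culture fewer cells of a type and less RNA per cell cannot be told apart.

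Every sample had a 1-colour array to itself. Brightness is given as log2 signal after quantile normalization, a scale on which a difference of 1 is a 2-fold change. A total of 29286 genes and transcripts were tested, 20317 of them with a gene name. RNA integrity numbers were 10 and 10 with DMSO and 10, 10 and 9.7 with MeOH eluate. Gene spots well above background made up 63.0% and 55.5% on DMSO replicates 1 and 2, against 55.1%, 58.3% and 55.7% on MeOH eluate replicates 1 to 3. The DMSO arrays stood further apart than any other replicate pair: the SD of their log2 differences was 0.54 and 2072 genes (7.08%) differed over 2-fold between them, while pairs of MeOH eluate arrays at 24 h had an SD of 0.34 to 0.38 and the next widest pair of the study, of WS1442 at 6 h, had 0.48. DMSO replicate 1 lay in slide column 2 together with MeOH eluate replicate 2, and DMSO replicate 2 lay in column 1 with the other MeOH eluate arrays. For this reason values are given for each array, and differences from either DMSO array where these disagree.

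Markers of the labelled cell stage were measured. The pluripotency gene Pou5f1, the streak genes T, Mixl1 and Mesp1, the cardiac progenitor factors Isl1, Gata4 and Nkx2-5 and the endothelial receptor Kdr were well above background on all 5 arrays. Of the markers of differentiated cardiomyocytes, Tnnt2 and Myl7 were above background on all 5 arrays, whereas no probe of Myh6 passed the filter.

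After 24 h with MeOH eluate, 364 genes were over 2-fold higher (1.24% of those tested) and 230 over 2-fold lower (0.785%) at an adjusted p under 0.05 by limma. Without the fold limit 2796 genes rose (9.55%) and 2553 fell (8.72%), and the median difference over all genes was 0.01. The shares of 9.55% and 8.72% are those of the fit of all arrays. They change where an array is left out, so list counts of such fits are not to be read against them. Smaller shares of all genes rose and fell without DMSO replicate 1. Without replicate 2 a larger share rose and a smaller share fell. Fewer calls in a list in these fits thus do not by themselves show a weaker change of the list. Among lists of related genes, 29 of 36 amino acid response genes and 9 of 24 endothelial genes fell, and 17 of 25 p53 targets rose. Of the 364 higher genes 183 were over 2-fold higher than each DMSO array taken alone, and of the 230 lower genes 176 were over 2-fold lower than each. The plot of differences from each DMSO array shows the higher genes split into a group on the diagonal and one that differs mainly from replicate 1. With each array scaled to its 75th percentile instead, 266 genes were higher and 277 lower, so the excess of higher genes depended on the normalization. With DMSO replicate 1 as the only control 1509 genes passed, and with replicate 2 as the only control 450.

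**Figure D1:**
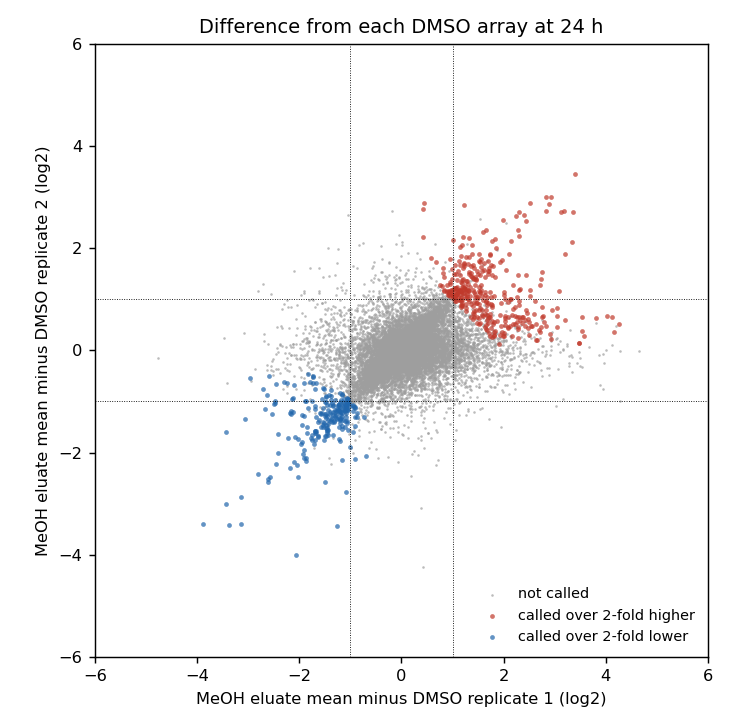
Log2 difference between the mean of the 3 MeOH eluate arrays and DMSO replicate 1 (x axis) or DMSO replicate 2 (y axis) at 24 h, 1 point for each gene, with red for the 364 genes called higher and blue for the 230 called lower; dotted lines mark a 2-fold difference. Many red points lie right of the vertical line but under the upper horizontal line, so that they differ over 2-fold from replicate 1 only.

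Aldh1a2, the enzyme that makes retinoic acid in early mesoderm, had the largest difference of those among the 8 leading named rises that were well above background on all 5 arrays. Its log2 signal was 6.46 and 6.56 with DMSO and 9.43, 9.18 and 9.24 with MeOH eluate, a difference of 2.77 ± 0.15 (SE; adjusted p = 4.5e-08) or 6.84-fold. Both groups were tight and far from overlapping. Next among these was Pcdh19, a cell adhesion protein of the protocadherin family, with 5.68 and 5.42 against 8.23, 8.10 and 7.87, which is 2.52 ± 0.16 higher (adjusted p = 1.37e-07). Hotair, a long non-coding RNA of the Hoxc cluster, was not well above background on either DMSO array (1.44 and 1.90) and reached 4.22, 4.94 and 4.70, which allows a statement of at least 2.13-fold higher (adjusted p = 2.17e-05). Ly6g6f, Slc39a5 and Fstl4 were also not well above background with DMSO and were at least 1.75-fold, 2.29-fold and 2.06-fold higher, with adjusted p of 0.00132, 0.00308 and 0.000217. Such bounds hold for the quantile-normalized signal used here only. With normexp background correction (offset 50) the log2 differences of Hotair, Ly6g6f, Slc39a5 and Fstl4 were 0.49, 0.35, 0.47 and 0.4, smaller than these bounds. For Slc39a5 the adjusted p was 0.0606 without DMSO replicate 1.

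For the remaining genes of the 8 leading rises the control arrays disagreed. Ell2, a factor of transcription elongation, had 4.25 and 7.99 with DMSO and 8.51, 8.58 and 8.43 with MeOH eluate, so the difference was 4.26 from replicate 1 and 0.52 from replicate 2 (2.39 ± 0.64 in all, adjusted p = 0.0166, and 0.0102 without replicate 1). Itgb6, an integrin subunit of epithelia, had 3.08 and 6.56 against 7.36, 6.75 and 7.53 (adjusted p = 0.0219). It was not well above background on DMSO replicate 1, so only the difference of 0.65 from replicate 2 was measured on both sides, and its adjusted p was 0.433 without replicate 1. The treated arrays lay close together for both genes, and the DMSO arrays did not. With WS1442 at 24 h Ell2 had 8.34, 8.18 and 8.25 and Itgb6 7.33, 5.88 and 7.3. These values lay nearer to DMSO replicate 2 than to replicate 1, and why replicate 1 was lower was not tested.

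Among the largest falls, Etv2, a transcription factor required for blood and endothelial precursors, was bright on every array. Its log2 signal was 11.24 and 11.14 with DMSO and 8.70, 8.85 and 8.46 with MeOH eluate, lower by 2.52 on the log2 scale or 5.74-fold (SE 0.10, adjusted p = 4.65e-09). Bace2, a membrane protease, had 9.15 and 9.06 against 6.67, 6.56 and 6.41, a 5.90-fold lower signal (adjusted p = 1.74e-08). These groups lay apart by far more than their replicates. Bcl2l15, a member of the Bcl2 family, had 5.92 and 5.43 with DMSO and was not well above background on any treated array, which makes it at least 3.53-fold lower (adjusted p = 1.01e-06). Bounds of the same kind were at least 4.72-fold lower for Pilra, an inhibitory receptor of immune cells (adjusted p = 0.000317), and at least 4.47-fold lower for Tlx2, a homeobox factor that responds to BMP (adjusted p = 5.57e-06). With normexp background correction the log2 differences of Bcl2l15, Pilra and Tlx2 were -0.83, -0.96 and -0.88, smaller falls than these bounds. Hoxb6, with 6.21 and 5.95 with DMSO, was well above background on 1 treated array (4.02) and not on the others (2.82 and 2.36), a difference of -3.01 ± 0.42 (adjusted p = 0.000136). With normexp background correction the difference of Hoxb6 was -0.91.

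**Figure D2:**
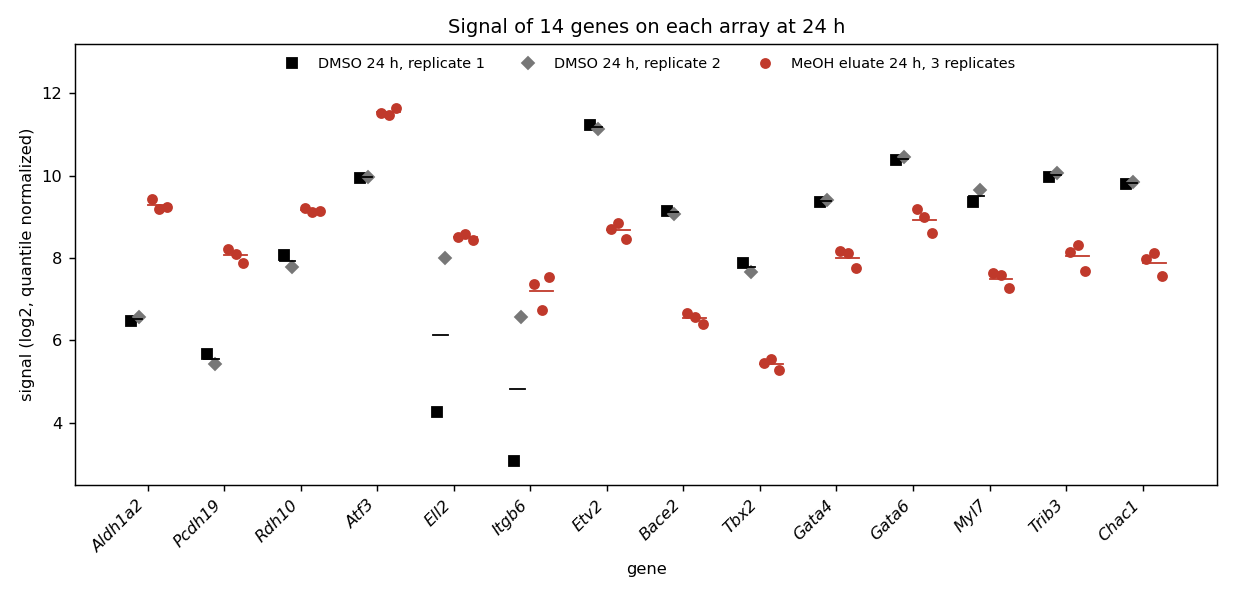
Log2 signal (y axis) of 14 genes on each array at 24 h, with squares and diamonds for DMSO replicates 1 and 2, circles for the 3 MeOH eluate replicates and short lines for group means. For 12 of the genes the DMSO arrays lie close together and apart from the treated arrays, while for Ell2 and Itgb6 DMSO replicate 1 lies far below replicate 2.

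Genes of the amino acid response and tRNA synthetases moved as a block: 29 of 36 fell and 1 rose, beside 8.72% and 9.55% of all genes, and the median difference of the list was -0.59. Trib3, a pseudokinase induced by ATF4, fell from 9.97 and 10.07 to 8.15, 8.31 and 7.69 (-1.97 ± 0.14, adjusted p = 3.58e-07). Chac1, an enzyme that degrades glutathione, fell from 9.80 and 9.84 to 7.97, 8.13 and 7.57 (-1.93 ± 0.12, adjusted p = 1.37e-07). In both genes all treated arrays lay at least a whole log2 unit under the controls. Pycr1, the last enzyme of proline synthesis, went from 7.24 and 7.30 to 5.64, 5.52 and 5.63 (-1.67 ± 0.15, adjusted p = 2.91e-06), and Mthfd2, a mitochondrial folate enzyme, from 10.73 and 10.66 to 9.19, 9.24 and 9.13 (-1.51 ± 0.07, adjusted p = 9.7e-09). Shmt2, which turns serine into glycine, fell by 1.37 and the amino acid transporter Slc7a5 by 1.30. Further enzymes of serine and asparagine synthesis fell less, Psat1 by 0.92 and Asns by 0.69, and tRNA synthetases such as Yars and Nars by 0.67 and 0.60. Yars had 2 other, dimmer probes that differed by -0.82 and 0.19. Atf4 itself had 13.52 and 13.43 against 13.24, 13.12 and 12.93 and did not pass (adjusted p = 0.0602). Its difference was -0.48 to -0.29 over all ways of processing, and it passed as lower in 6 of 18 alternatives. Ddit3 did not pass (0.13, adjusted p = 0.645). Slc7a11, the cystine transporter, well above background on 1 of 2 DMSO arrays, had the opposite sign with discordant controls (3.07 and 4.91 against 5.01, 5.01 and 5.32, adjusted p = 0.0613). Cebpb, a C/EBP factor, was the member that rose (0.45 ± 0.09, adjusted p = 0.00311). The count of members that fell was 28 without DMSO replicate 1 and 29 without replicate 2.

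The sites through which ATF4 and C/EBP proteins act have the core TGATGNAA, read on either strand. In RefSeq promoter windows of GRCm38.p6, the 250 bases before the start site held this core in 1056 of 27025 genes (3.91%) and in 9 of the 30 list members with an entry (30%). The members with it were Asns, Chac1, Slc7a11, Pycr1, Nupr1, Vldlr, Aars, Gars and Tars. Of the 27 members with an entry that rose or fell, 8 held it. The list was chosen as genes of this response, so its share is no result of the treatment. The stretches below are shown because they belong to the 3 members with the core that fell most; capitals mark the core or its reverse complement, TTNCATCA. Their positions are chr2:119351019-119351086 on the plus strand for Chac1, chr11:120643814-120643881 on the minus strand for Pycr1 and chr19:27216790-27216857 on the plus strand for Vldlr (a lipoprotein receptor), ending 155, 65 and 162 bases before the annotated start.
Chac1: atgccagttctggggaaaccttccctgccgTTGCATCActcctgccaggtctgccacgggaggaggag
Pycr1: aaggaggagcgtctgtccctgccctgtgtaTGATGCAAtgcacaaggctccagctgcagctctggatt
Vldlr: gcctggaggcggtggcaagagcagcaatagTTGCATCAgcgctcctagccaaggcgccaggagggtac
Vldlr had 9.83 and 9.69 with DMSO and 8.38, 8.35 and 8.16 with MeOH eluate (-1.47 ± 0.11, adjusted p = 5.74e-07). A match of letters is a description of these windows and shows no binding.

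Endothelial genes were lower or did not pass: 9 of 24 fell, 8 of them over 2-fold, and 0 rose, while 8.72% of all genes fell. Some of these members were not well above background on treated arrays. With only probes well above background on every array compared, 5 of 19 fell, beside 10.2% of all genes. Besides Etv2, Tal1, a factor shared by blood and endothelium, fell from 8.30 and 7.92 to 6.28, 6.48 and 5.89 (-1.89 ± 0.16, adjusted p = 2.05e-06), and its partner Lmo2 from 8.45 and 8.44 to 7.09, 6.99 and 6.84 (-1.47 ± 0.14, adjusted p = 6.2e-06). Plvap, a protein of vessel diaphragms, fell by 1.53 (adjusted p = 5.09e-05), Icam2 by 1.41 with 2 of 3 treated arrays well above background, and Egfl7 by 0.47. The adhesion proteins Pcdh12 and Cdh5 were not well above background on any treated array and were at least 2.34-fold and 2.08-fold lower (adjusted p = 0.000775 and 0.00135). Vwf, the clotting factor of vessel walls, had 6.10 and 4.27 with DMSO and was at least 2.51-fold lower (adjusted p = 0.0193), but its adjusted p was 0.278 without DMSO replicate 1. With normexp background correction the log2 differences of Pcdh12, Cdh5 and Vwf were -0.57, -0.44 and -0.6, smaller falls than these bounds. The receptor Kdr had 8.27 and 8.57 against 8.29, 8.31 and 8.23, and Pecam1 had 7.43 and 7.86 against 7.54, 7.81 and 7.93, overlapping groups in both cases (adjusted p = 0.337 and 0.73). Without DMSO replicate 1, 8 members fell, and without replicate 2, 9. In the list of primitive blood genes 2 of 14 rose, beside 9.55% of all genes, and 0 fell: Hbb-bh1, an embryonic globin, had 4.42 and 3.79 against 5.65, 6.31 and 4.70 (1.45 ± 0.38, adjusted p = 0.015; well above background on 1 of 2 DMSO arrays), and Kit rose by 0.41, the former lost without DMSO replicate 2 and the latter without replicate 1.

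Of the cardiac progenitor factors 8 of 22 fell, beside 8.72% of all genes, and 2 rose (9.09%), which is near the 9.55% of all genes that rose. Tbx2 and Tbx3, T-box repressors of the chamber programme, fell most, Tbx2 from 7.89 and 7.66 to 5.46, 5.55 and 5.29 (-2.34 ± 0.15, adjusted p = 1.33e-07) and Tbx3 by 1.65 (adjusted p = 4.88e-08). Gata6 fell from 10.38 and 10.45 to 9.18, 9.0 and 8.60 (-1.48 ± 0.14, adjusted p = 3.45e-06) and Gata4 from 9.37 and 9.41 to 8.16, 8.13 and 7.75 (-1.38 ± 0.13, adjusted p = 3.45e-06); both are zinc finger factors of heart and endoderm. Treated arrays of these 4 genes all lay under both controls. Fgf10, a growth factor of the second heart field, fell by 1.20 and Hand2 by 0.70. Isl1, the marker of that field, had 7.49 and 7.37 against 7.01, 6.93 and 6.63 (-0.57 ± 0.13, adjusted p = 0.00676; 0.0739 without DMSO replicate 1). Nkx2-5 did not pass (5.81 and 6.21 against 5.50, 5.85 and 5.67, adjusted p = 0.308), nor did Hand1 (0.05, adjusted p = 0.841). Foxc2, a forkhead factor of paraxial mesoderm and outflow tract, rose from 7.66 on both controls to 9.31, 9.15 and 8.82 (1.44 ± 0.11, adjusted p = 7.55e-07), and Foxc1 rose by 0.76. Fewer members fell without DMSO replicate 1 or without replicate 2, as was so for all genes. The median of the list was -0.28, with -0.15 against DMSO replicate 1 alone and -0.32 against replicate 2 alone.

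Of the contractile genes 2 of 27 rose (7.41%) and 3 fell (11.1%), close to the 9.55% and 8.72% of all genes. Myl7, the atrial myosin light chain, fell from 9.37 and 9.66 to 7.63, 7.58 and 7.28 (-2.02 ± 0.16, adjusted p = 8.61e-07), 4.06-fold lower. Tnnt2, cardiac troponin T, fell by 0.51 (adjusted p = 0.00852; 0.145 without DMSO replicate 1), while the tropomyosin Tpm1 rose by 0.59 (adjusted p = 1.04e-05).

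Genes of the primitive streak and early mesoderm fell or did not pass: 9 of 18 fell, beside 8.72% of all genes, 0 rose, and the median was -0.39. Mixl1, a homeobox factor of the streak, fell from 10.19 and 10.12 to 8.89, 8.96 and 9.02 (-1.20 ± 0.07, adjusted p = 4.5e-08), and Evx1 from 10.14 and 10.18 to 8.98, 8.92 and 8.88 (-1.23 ± 0.09, adjusted p = 4.81e-07). Eomes fell by 0.74, Gsc by 0.79 and Msgn1 by 0.77. T, the brachyury factor, showed no such difference, with 7.66 and 7.47 against 7.40, 7.43 and 7.71 (adjusted p = 0.831). Cdx2, not well above background on any treated array, was at least 2.0-fold lower (adjusted p = 0.00523; 0.0934 without DMSO replicate 1), and Mesp1 fell by 0.48, a call lost without either DMSO array. With normexp background correction the log2 difference of Cdx2 was -0.36, a smaller fall than its bound. Fewer members of the list fell without DMSO replicate 1 or without replicate 2, as was so for all genes.

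Endoderm genes gave 5 of 15 lower, beside 8.72% of all genes, and 0 higher, and 3 lower without DMSO replicate 1. Sox17, a factor of definitive endoderm and vessels, fell from 7.44 and 7.48 to 5.64, 6.11 and 5.70 (-1.65 ± 0.14, adjusted p = 2.11e-06), although another, dimmer probe of it differed by 0.11. Cxcr4, a chemokine receptor, fell by 1.01 and Spink1, a protease inhibitor, by 1.98. Core pluripotency genes stayed near the controls: Pou5f1 (12.83 and 12.86 against 12.97, 13.04 and 12.77), Nanog (0.16) and Sox2 (-0.31) did not pass (adjusted p = 0.475, 0.607 and 0.207). Of the 24 pluripotency genes 3 rose and 3 fell (12.5% each, beside 9.55% and 8.72%), among them Tdgf1, the nodal co-receptor, which fell by 0.69.

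Retinoic acid genes moved in both directions, 5 of 18 up and 4 down, beside 9.55% and 8.72% of all genes. The enzymes of synthesis rose: Aldh1a2, given above, and Rdh10, which makes retinaldehyde, from 8.07 and 7.78 to 9.22, 9.13 and 9.15 (1.24 ± 0.10, adjusted p = 6.39e-07). Dhrs3, which turns retinaldehyde back to retinol, rose by 0.64 and the transglutaminase Tgm2 by 0.76. The enzymes of breakdown fell, Cyp26a1 from 10.23 on both controls to 9.31, 9.21 and 8.92 (-1.08 ± 0.11, adjusted p = 8.18e-06) and Cyp26b1 by 0.80 (adjusted p = 0.000885). Without DMSO replicate 1 or without replicate 2, 2 members fell in place of 4. No probe of the receptor gene Rarb passed the filter. Among 30 Hox genes, many of which answer to retinoic acid, 2 rose (6.67%) and 4 fell (13.3%), beside 9.55% and 8.72% of all genes. Apart from Hoxb6, Hoxc6 (-1.03, with a second probe at 0.16) and Hoxd9 (-1.08) were the largest. Both lost their call without DMSO replicate 1 and differed from replicate 2 by -0.88 and -0.98. Fewer members of the list rose and fell without replicate 1, as was so for all genes.

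Of the BMP genes 10 of 26 fell, beside 8.72% of all genes, 1 rose and 15 did not pass, with a median of -0.34. The targets Msx1 and Msx2 fell, Msx1 from 13.31 and 13.36 to 12.24, 12.22 and 11.97 (-1.19 ± 0.07, adjusted p = 4.88e-08) and Msx2 by 1.18 (adjusted p = 3.75e-07). Bmper, a secreted modulator, fell by 1.47, the zinc finger factor Gata3 by 1.20, the inhibitor Smad7 by 0.98 and the ligand Bmp4 by 0.47, whereas the ligand Bmp7 rose by 0.46 (adjusted p = 0.0983 without DMSO replicate 1). Id1, a direct target, had 11.13 and 11.29 against 10.63, 10.68 and 10.55 and did not pass (adjusted p = 0.263), though all treated arrays lay under both controls. Its difference was -0.67 to -0.47 over all ways of processing, and it passed in 2 of 18 alternatives. FGF ligands and ERK feedback genes gave 10 of 26 lower and 3 higher, beside 8.72% and 9.55% of all genes, and 3 of the lower ones were over 2-fold. These were the ligands Fgf3 (-1.34 ± 0.13) and Fgf10 (given above) and the receptor Fgfr4, with 4.42 and 3.22 against 2.36, 2.16 and 2.30, well above background on DMSO replicate 1 only and with an adjusted p of 0.332 without it. The ERK target Etv4 fell from 12.00 and 11.95 to 11.33, 11.22 and 11.20 (-0.73 ± 0.06, adjusted p = 1.23e-06). In the TGF-beta and nodal list 7 of 23 rose (30.4%, beside 9.55% of all genes) and 4 fell (17.4%, beside 8.72%), Nodal by 0.83 upwards and its inhibitor Lefty2 by 1.06 downwards (adjusted p = 0.000428 and 5.46e-05). Of 28 Wnt genes 6 rose (21.4%) and 5 fell (17.9%), beside 9.55% and 8.72% of all genes. Among them the ligand Wnt6 was up by 0.88 and the antagonist Sfrp5 down by 1.63. Notch and somite genes had 2 of 23 higher (8.7%), near the 9.55% of all genes, and 6 lower (26.1%), beside 8.72%. Fewer of them were lower without DMSO replicate 1, as was so for all genes. The target Hey1 fell by 1.20, a call lost without either DMSO array.

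In a list of 19 epithelial and mesenchymal genes 10 rose and 5 fell, beside 9.55% and 8.72% of all genes. Cdh1, E-cadherin, went from 12.97 and 12.91 to 13.83, 13.75 and 13.99 (0.91 ± 0.07, adjusted p = 6.39e-07) and the tight junction gene Cldn7 from 10.96 and 10.98 to 11.88, 11.92 and 11.89 (0.93 ± 0.06, adjusted p = 2.29e-07). Cldn6, Epcam and the keratin Krt8 rose by 0.89, 0.59 and 0.63. Cdh11, a cadherin of mesenchyme, fell from 9.92 and 9.69 to 8.45, 8.50 and 8.39 (-1.36 ± 0.12, adjusted p = 3.27e-06), and Cdh2 and the repressor Snai1 fell by 0.53 and 0.76. The mesenchymal genes did not all follow, since Twist1 and Vim rose by 0.47 and 0.40. Matrix genes gave 7 of 26 higher (26.9%) and 8 lower (30.8%), beside 9.55% and 8.72% of all genes. The proteoglycan Bgn (-1.49 ± 0.14), Fbln2 (-1.37 ± 0.15) and the collagens Col6a3 (-1.20 ± 0.19), Col1a1 (-1.13 ± 0.14) and Col1a2 (-1.02 ± 0.09) fell, while Thbs1 and Sparc rose by 0.92 and 0.47.

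**Figure D3:**
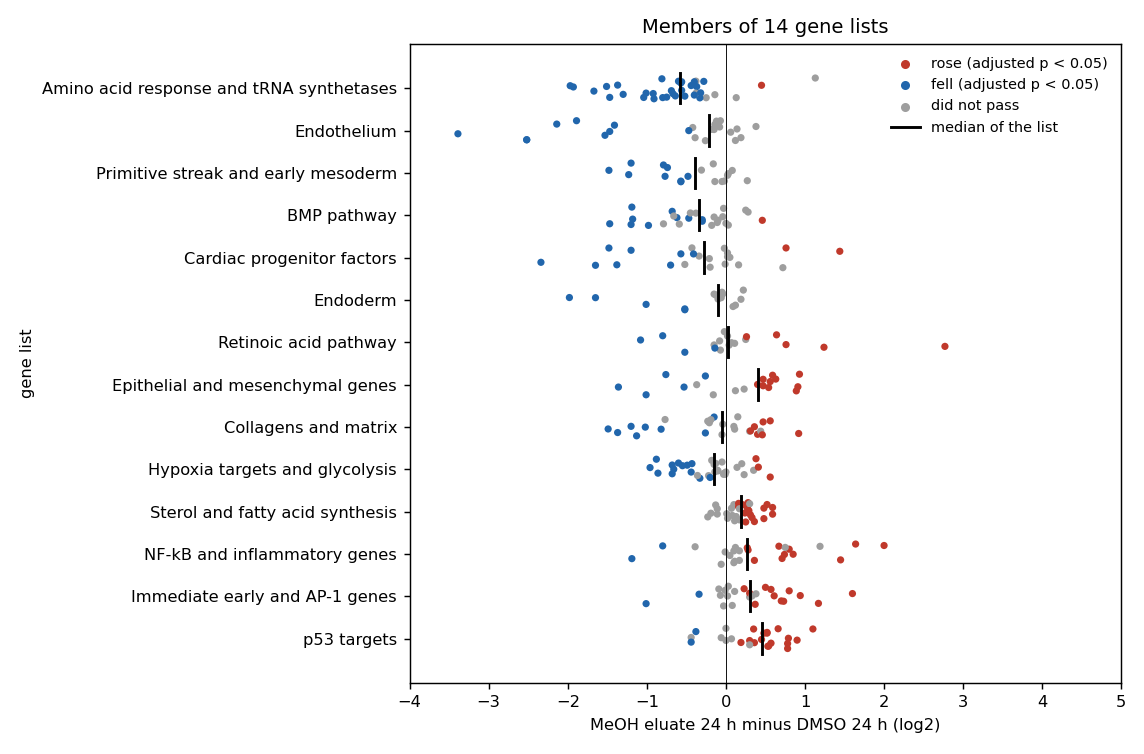
Log2 difference between MeOH eluate and DMSO at 24 h (x axis) for the members of 14 gene lists, 1 point for each tested gene, red where it rose and blue where it fell at an adjusted p under 0.05, with a black line at the list's median. Amino acid response genes lie almost all left of 0 (median -0.59) and p53 targets mostly right of it (median 0.45), whereas the lists of cell identity hold a tail of lower genes.

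Targets of p53 rose in 17 of 25 cases and fell in 2, beside 9.55% and 8.72% of all genes, with a median of 0.45. Mdm2, the ubiquitin ligase that removes p53, had 10.72 and 11.37 with DMSO and 12.15, 12.00 and 12.28 with MeOH eluate (1.1 ± 0.14, adjusted p = 4.78e-05). The cell cycle inhibitor Cdkn1a rose from 12.24 and 12.38 to 13.17, 13.00 and 13.13 (0.79 ± 0.07, adjusted p = 1.54e-06) and Trp53inp1 from 11.03 on both controls to 11.88, 11.84 and 12.07 (0.90 ± 0.07, adjusted p = 4.75e-07). Smaller rises were seen for the pro-apoptotic genes Bbc3 (0.35) and Bax (0.19; adjusted p = 0.0719 without DMSO replicate 2). Pmaip1 and Sesn1 fell by 0.44 and 0.38, calls lost without DMSO replicate 1 and, for Sesn1, also without replicate 2. The number that rose was 16 without DMSO replicate 1 and 15 without replicate 2. Of 36 cell cycle and replication genes 10 fell (27.8%) and 1 rose (2.78%), beside 8.72% and 9.55% of all genes. The largest difference was that of Ccnd2 (-0.57 ± 0.07). Fewer of the list fell without DMSO replicate 1, as was so for all genes. The proliferation marker Mki67 differed by -0.14 (adjusted p = 0.0986).

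Immediate early genes rose in 12 of 25 cases, beside 9.55% of all genes, and fell in 2 (8.0%), near the 8.72% of all genes. Atf3, a stress-induced repressor, rose from 9.94 and 9.97 to 11.53, 11.48 and 11.64 (1.6 ± 0.07, adjusted p = 4.91e-09), and the nuclear receptor Nr4a1 by 0.94. Fosl2 had discordant controls (7.29 and 8.95 against 9.29, 9.23 and 9.35), which made it 2.00 above replicate 1 and 0.34 above replicate 2 (1.17 ± 0.29 in all, adjusted p = 0.0104). Fos itself did not pass (0.11, adjusted p = 0.716), and Myc fell from 10.33 and 10.47 to 9.37, 9.53 and 9.28 (-1.01 ± 0.07, adjusted p = 3.76e-07). NF-kB and inflammatory genes gave 11 of 25 higher, beside 9.55% of all genes, and 2 lower (8.0%), again near the 8.72% of all genes. The chemokine Ccl2 rose from 6.53 and 6.10 to 7.85, 7.54 and 7.90 (1.45 ± 0.17, adjusted p = 2.96e-05), the growth factor Csf1 by 0.85 and the feedback inhibitor Tnfaip3 by 0.74. Ptgs2, the inducible cyclooxygenase, had 3.09 and 4.54 with DMSO and 5.81, 5.89 and 5.74 with MeOH eluate, 1.28 above replicate 2 (adjusted p = 0.000205 with both controls). It was not well above background on DMSO replicate 1, and the fitted difference from both controls went from 2.00 to 0.60 with normexp background correction. Il7, not well above background with DMSO, was at least 2.16-fold higher (adjusted p = 0.000297). With normexp background correction the log2 difference of Il7 was 0.33, smaller than this bound.

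Sterol and fatty acid synthesis genes rose in 17 of 32 cases, beside 9.55% of all genes, and fell in 0, by small steps (median 0.19). Msmo1 rose from 13.15 and 13.07 to 13.73, 13.68 and 13.70 (0.59 ± 0.05, adjusted p = 6.4e-07), with a dimmer probe at -0.24. With arrays scaled to the 75th percentile 9 members rose and 3 fell (median 0.12), beside 7.43% and 10.2% of all genes. The direction of single members was thus not independent of the scaling. The sterol element TCACNCCAC was found in 1 of 21 promoter windows of the list (Hmgcs1) and in 1.22% of all windows. Hypoxia targets and glycolytic genes gave 13 of 33 lower, beside 8.72% of all genes, and 3 higher (9.09%), near the 9.55% of all genes: the prolyl hydroxylases Egln3 and Egln1 fell by 0.96 and 0.86, Ankrd37 by 0.88 and Bnip3 by 0.68, while the glucose transporter Slc2a1 and Pfkfb3 rose by 0.38 and 0.56. The calls of Bnip3, without either DMSO array, and of Pfkfb3, without replicate 1, were lost. With 75th percentile scaling 19 members fell and 1 rose, beside 10.2% and 7.43% of all genes.

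Whether the response at 24 h differed from that at 6 h was tested as the difference of the 2 effects, each against DMSO of its own slide. This difference exceeded 2-fold upwards for 234 genes (0.799%) and downwards for 188 (0.642%), and it passed at any size for 3.82% upwards and 3.95% downwards. At 6 h itself 221 genes were over 2-fold higher than DMSO (0.755%) and 207 lower (0.707%). It shares the DMSO and MeOH eluate arrays of 24 h with the values above. Of the amino acid response genes 10 of 36 fell and 4 rose at 6 h, beside 8.32% and 8.81% of all genes, with a median of -0.02, and 27 of 36 had a lower effect at 24 h than at 6 h, and 0 a higher one. Trib3 differed from DMSO by -0.09 at 6 h (adjusted p = 0.72) and its effects differed by -1.88 (adjusted p = 3.76e-05). Chac1 had already fallen by 1.47 at 6 h and its effects did not differ past the threshold (-0.46, adjusted p = 0.133). Aldh1a2 differed from DMSO by 0.19 at 6 h (adjusted p = 0.458) and Etv2 by -0.30 (adjusted p = 0.0506), and their effects at 24 h were 2.59 higher and 2.22 lower (adjusted p = 4.18e-06 and 5.76e-07). Both genes thus differed more from DMSO at 24 h than at 6 h.

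Some genes turned direction between the time points. Hypoxia targets and glycolytic genes rose in 21 of 33 cases at 6 h, when 8.81% of all genes rose. Of the 33, 19 had a lower effect at 24 h than at 6 h, beside 3.95% of all genes. Bnip3 rose by 1.52 at 6 h and fell by 0.68 at 24 h (difference -2.20, adjusted p = 0.000271). Myl7 rose by 1.05 at 6 h and fell by 2.02 at 24 h (difference -3.07, adjusted p = 1.67e-06), and Fgf3 rose by 0.88 and fell by 1.34 (difference -2.22, adjusted p = 3.58e-06). Isl1 rose by 0.55 at 6 h. In the other direction, Rdh10 fell by 0.42 at 6 h and rose by 1.24 at 24 h (difference 1.66, adjusted p = 3.58e-06), and Nodal fell by 0.68 and rose by 0.83 (difference 1.51, adjusted p = 0.000145).

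Streak genes were lower already at 6 h, when 10 of 18 fell and 2 rose, beside 8.32% and 8.81% of all genes, with a median of -0.57. Mixl1 was lower by 2.39 on the log2 scale at 6 h and by 1.20 at 24 h (difference 1.19, adjusted p = 3.13e-06), Gsc by 2.66 and 0.79 (difference 1.87, adjusted p = 8.16e-06). T was lower by 1.28 at 6 h (adjusted p = 2.13e-06) and near the controls at 24 h. Gata6 and Cyp26a1 were lower at both times (-1.79 and -1.48 for Gata6, -1.27 and -1.08 for Cyp26a1), and their effects did not differ past the threshold (adjusted p = 0.39 and 0.538). Sterol genes rose in 24 of 32 cases at 6 h (median 0.48), beside 8.81% of all genes. Of the 32, 15 had a lower effect at 24 h, beside 3.95% of all genes.

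**Figure D4:**
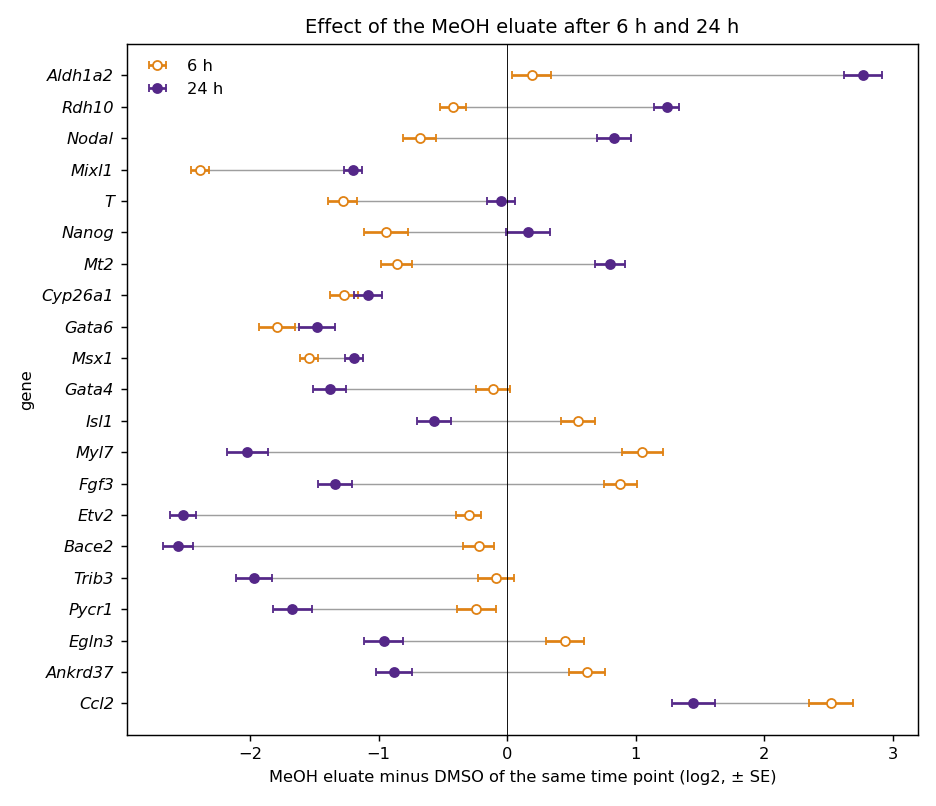
Log2 difference between MeOH eluate and DMSO of the same time point (x axis, bars are ± SE of the fit) for 21 genes, with open orange circles for 6 h and filled purple circles for 24 h. Aldh1a2, Etv2, Bace2 and Trib3 lie near 0 at 6 h and far from it at 24 h, Rdh10, Nodal, Mt2, Isl1, Myl7, Fgf3, Egln3 and Ankrd37 change sides, and Cyp26a1 stays on the same side.

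The MeOH eluate was set directly against WS1442 at 24 h, a test that involves no DMSO array. The doses differed (0.1 against 0.25 mg/ml), so a difference can come from the dose as well as from the composition, and these cannot be told apart. Over 2-fold differences were few: 23 genes were higher (0.0785%) and 47 lower (0.161%) with MeOH eluate. Among the named genes Pilra showed the largest, with 3.08, 2.96 and 2.45 with MeOH eluate, not well above background, and 5.77, 5.78 and 5.68 with WS1442, where DMSO gave 5.97 and 6.21 (fitted difference -2.92 ± 0.45, which is no bound; adjusted p = 0.000831). Bace2 had 8.51, 8.47 and 8.61 with WS1442 and was lower by 1.99 with MeOH eluate (adjusted p = 3.24e-07), and Etv2, at 10.10, 10.20 and 10.14 with WS1442, by 1.48 (adjusted p = 4.48e-07). WS1442 arrays lay between DMSO and MeOH eluate for both genes. Gata6 (10.01, 10.00 and 10.16 with WS1442) was lower by 1.13 and Cyp26a1 (10.13, 10.13 and 10.35) by 1.06 with MeOH eluate, and for Cyp26a1 the WS1442 arrays lay on both sides of the DMSO arrays, at 10.23. Isl1 had 7.82, 7.60 and 7.89 with WS1442, above both DMSO arrays, and was 0.91 lower with MeOH eluate (adjusted p = 0.000305). Etv4 stood at 12.14, 12.26 and 12.34 with WS1442 and was lower by 1.00 with MeOH eluate (adjusted p = 3.24e-07).

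Higher signals with MeOH eluate than with WS1442 were found for Pcdh19 (7.05, 6.71 and 6.87 with WS1442; difference 1.19, adjusted p = 0.000192), Hbb-bh1 (1.55, adjusted p = 0.00746) and Rdh10 (0.77, adjusted p = 0.000105). Aldh1a2, at 8.91, 8.79 and 9.01 with WS1442, differed by 0.38 and did not pass (adjusted p = 0.0802). By lists, 18 of 36 amino acid response genes, 21 of 32 sterol genes, 12 of 33 hypoxia genes and 10 of 26 BMP genes were lower with MeOH eluate than with WS1442, beside 7.31% of all genes, and 0 of the first, 2 of the second, 0 of the third and 1 of the last were higher, beside 7.36%. Chac1 (9.11, 9.30 and 9.29 with WS1442) was lower by 1.34 (adjusted p = 1.36e-05). Msmo1 reached 14.18, 14.15 and 14.25 with WS1442, 0.49 above the MeOH eluate. Of the p53 targets 7 of 25 were higher with MeOH eluate than with WS1442, beside 7.36% of all genes, and 0 lower. Trp53inp1 was 0.55 higher (adjusted p = 9.3e-05), while Mdm2 and Cdkn1a did not differ past the threshold (0.15 and -0.11, adjusted p = 0.478 and 0.277).

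**Figure D5:**
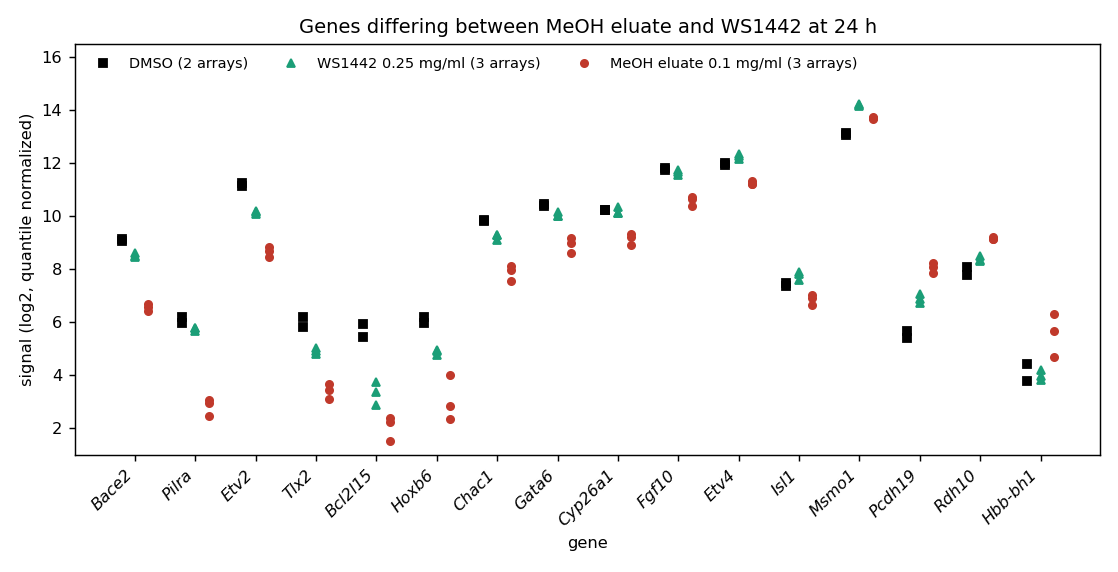
Log2 signal (y axis) of 16 genes on every array at 24 h, with black squares for DMSO, green triangles for WS1442 (0.25 mg/ml) and red circles for MeOH eluate (0.1 mg/ml). Etv2, Bace2 and Chac1 are lowest with MeOH eluate with WS1442 in between, Cyp26a1 and Isl1 with WS1442 lie at or near the DMSO arrays or above them, and Pcdh19 is highest with MeOH eluate.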

How the data were processed

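Cy3-labelled cRNA was hybridised to 1-colour Agilent arrays. The authors deposited scanner output (Feature Extraction 11.5.1.1 in their processing notes) whose processed signal is an intensity in arbitrary units, background corrected within each array and not normalized between arrays. They also deposited a table of linear intensities, quantile normalized over all samples, whose columns each correlated best with their own array in 16 of 16 cases. Flagged spots (non-uniform or population outlier) were set missing, log2 intensities of the deposited scanner files were quantile normalized over the 16 arrays, and a probe was kept where all arrays of any 1 group had it well above background. Probes were named by accession through RefSeq or by the files' symbol (32067 and 9355 of 60273 probes), and the brightest kept probe stood for a gene; 18083 probes have no gene name here and 768 have several. Of 28 genes chosen by name that have another kept probe, 20 had all probes on the same side. Means of all groups were fitted together over the 16 arrays with limma 3.58.1 (R 4.3.3, eBayes with trend), so all groups share the spread of a gene. P-values were adjusted over all genes by Benjamini-Hochberg, and rose and fell mean an adjusted p under 0.05. Where no array of a group was well above background, the bound uses the higher of the lowest signal of such probes and the gene's own. Named genes were the 8 largest rises and 8 largest falls, up to 3 members of each of 30 lists (750 entries, 694 tested), and fixed defining genes; 60 further members of the lists were chosen after their values were seen, and a few list members are not reported here by name. Members, lists and tests were chosen with earlier results of these data known. Alternatives covered normalization, background, filter, probe, source, test, blocks, weights and each replicate left out. The methods' t-test stands for Student's t-test, which the authors name for pairwise comparisons in general. For the arrays they name no test, and they give a p under 0.05 without naming an adjustment. At an unadjusted p under 0.05 this t-test gave 427 genes over 2-fold from DMSO. The number of arrays limits the precision. The procedure was tested on simulated data in which all groups had the same spread. That test does not cover DMSO arrays that stand further apart than other replicates.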

Additional observations from a re-analysis of the deposited data

Results flagged for a closer look

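The effect of the MeOH eluate on 48 genes named here differed between 24 h and 6 h by over 2-fold, by limma's test of the difference itself at an adjusted p under 0.05. Values are log2 effects at 24 h minus effects at 6 h. All share the DMSO and MeOH eluate arrays of 24 h.

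Higher at 24 h than at 6 h were Hotair (3.02), Fstl4 (2.72), Aldh1a2 (2.59), Il7 (1.92), Gsc (1.87), Rdh10 (1.66), Mt2 (1.66), Nodal (1.51), Dhrs3 (1.40), Wnt6 (1.37), Cryab (1.26), T (1.23), Ephx1 (1.21), Mixl1 (1.19), Nanog (1.11), Mt1 (1.07) and Slc40a1 (1.02). Mixl1, T and Nanog were lower with MeOH eluate at 6 h (-2.39, -1.28 and -0.94), and none of them rose at 24 h. The metallothioneins Mt1 and Mt2 fell at 6 h (-0.32 and -0.86) and rose at 24 h (0.74 and 0.80).

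Lower at 24 h than at 6 h were Myl7 (-3.07), Bcl2l15 (-3.01), Pcdh12 (-2.95), Pilra (-2.68), Hoxb6 (-2.57), Bace2 (-2.34), Etv2 (-2.22), Fgf3 (-2.22), Bnip3 (-2.20), Tlx2 (-1.98), Tal1 (-1.95), Trib3 (-1.88), Osgin1 (-1.85), Plvap (-1.85), Foxc2 (-1.81), Spink1 (-1.69), Ankrd37 (-1.5), Fbln2 (-1.43), Pycr1 (-1.43), Egln3 (-1.41), Gata4 (-1.27), Msx2 (-1.24), Egln1 (-1.23), Nupr1 (-1.23), Slc7a5 (-1.20), Bmper (-1.12), Isl1 (-1.12), Anpep (-1.10), Ccl2 (-1.08), Mthfd2 (-1.05) and Tbx3 (-1.05). Ccl2 and Foxc2 were higher with MeOH eluate at both times (2.52 and 1.45 for Ccl2, 3.24 and 1.44 for Foxc2). Hotair, Fstl4, Il7, Bcl2l15, Pcdh12, Pilra and Tlx2 were not well above background in a group at 24 h, so their fitted values are no bounds. Hoxb6 was well above background on no DMSO or MeOH eluate array at 6 h, and Pcdh12 and Pilra on 1 DMSO array and no MeOH eluate array at 6 h, so no effect at 6 h was measured for Hoxb6 and only a limited one for the others.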

How the results depend on the processing

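In place of 594 genes over 2-fold from DMSO, the number called was 110 with normexp background correction (offset 50), 303 with probes well above background on every array compared, 381 in a fit of the 5 arrays alone and 60 by the methods' t-test with adjustment (109, 301, 372 and 60 of them among the 594); leaving out 1 array gave 446 to 1509, with 450 without DMSO replicate 1 and 1509 without replicate 2. Under normexp 40 were higher and 70 lower, against 364 and 230. Scaling to the 75th percentile gave 49% higher among 543 genes, against 61.3%, and moved the median of all genes to -0.03. In place of 5349 genes changed at any size there were 313 by the methods' t-test and 3326 to 5277 with 1 array left out, the lowest without DMSO replicate 1; their share that was higher went from 52.3% to 42.1% under 75th percentile scaling. In place of 70 genes over 2-fold from WS1442 there were 9 with normexp, 29 with the stricter filter, 139 without a filter, 11 by the methods' t-test and 48 to 94 with 1 array left out. In place of 422 genes with another effect at 24 h than at 6 h there were 141 with normexp and 335 to 993 with 1 array left out, the highest without DMSO 24 h replicate 2. Where 1 DMSO array remained, it was assumed to vary like the other groups.

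Over all named genes and alternatives, 2861 results kept their direction and side of the threshold, 230 lost significance (135 by the methods' t-test, 27 without DMSO replicate 1, 10 without DMSO replicate 2), 11 gained it and 8 changed sign or reached 0, all of genes that had not passed: T to 0.05 without DMSO replicate 1 and 0.01 without MeOH eluate replicate 1, Kdr to 0.01 without DMSO replicate 2, Pecam1 to -0.09 with the mean of probes and -0.10 without DMSO replicate 1, Fos to -0.13 without DMSO replicate 1, Hand1 to 0 with the mean of probes, and Nqo1 to 0 with normexp. With 1 array left out, the values ranged from -0.15 to 0.05 for T, from -0.30 to 0.01 for Kdr, from -0.10 to 0.33 for Pecam1 and from -0.13 to 0.35 for Fos. The cause was not tested. Replicate numbers did not pair the samples (correlation of deviations between MeOH eluate and DMSO of the same number -0.07 and -0.16); with the replicate block 515 genes passed over 2-fold, 4518 at any size, 62 against WS1442 and 412 between time points. With slide column as a block 521 passed over 2-fold, and 593 of the 594 genes had the same sign within both columns, 328 of them over 2-fold in both. Low signals limit the reading of 133 higher genes without a DMSO array well above background and of 63 lower genes without such a treated array.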

Other observations

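Other gene lists are given beside the 9.55% of all genes that rose and the 8.72% that fell. With 75th percentile scaling these shares were 7.43% and 10.2%, and they also change where an array is left out. Of the iron and metallothionein genes 4 of 17 rose and 1 fell: Mt1 went from 10.64 and 10.79 with DMSO to 11.53, 11.41 and 11.43 with MeOH eluate (0.74 ± 0.08, adjusted p = 9.31e-06 by limma), Mt2 rose by 0.80 and the iron exporter Slc40a1 by 0.78, while the transferrin receptor Tfrc differed by -0.08 (adjusted p = 0.371). With 75th percentile scaling 4 of them rose and 3 fell. Of 22 NRF2 targets 4 rose and 3 fell (2 and 1 without DMSO replicate 1), with Osgin1 lower by 1.72 on the log2 scale and the epoxide hydrolase Ephx1 higher by 0.70; Hmox1 and Nqo1 did not pass (0.07 and 0.12, adjusted p = 0.595 and 0.447). Ahr, the aryl hydrocarbon receptor, had 5.21 and 6.13 with DMSO and 6.92, 6.74 and 6.73 with MeOH eluate, 1.59 above replicate 1 and 0.67 above replicate 2 (1.13 ± 0.21 in all, adjusted p = 0.00126).

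Of 16 heat shock chaperones 4 rose and 3 fell (3 and 0 without DMSO replicate 1, 3 and 5 with 75th percentile scaling), with the small chaperone Cryab up by 1.04 and Hspa1a by 0.82. Unfolded protein response genes gave 4 of 18 lower (1 without DMSO replicate 1) and 0 higher, led by Herpud1 (-0.79 ± 0.10, adjusted p = 5.89e-05). In the Bcl2 family 6 of 19 rose and 3 fell (1 without DMSO replicate 1), with Bid up by 0.76 (adjusted p = 3.2e-06) beside the fall of Bcl2l15. Neuroectoderm genes gave 2 of 20 in each direction: Nes rose by 0.56 and Pax6, well above background on 1 of 2 DMSO arrays, by 0.82, and En1 fell by 0.72; the calls of Pax6 and En1 were lost without DMSO replicate 1, and that of En1 also without replicate 2. Of the genes called over 2-fold, 243 higher and 172 lower ones have a gene name.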
